A study of Saccharomyces cerevisiae with 14 samples.

Results

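Transcripts of EPY330, the yeast strain that makes artemisinic acid, were compared with those of EPY338, whose amorphadiene oxidase (AMO) is inactive, at 24 h after induction on 4 cDNA slides (replicates A to D). Every ORF with a value on at least 3 of the 4 slides was described, which took in 5861 of the 6040 ORFs of the table, 5500 of them with 4 slides and 361 with 3. Both strains descend from EPY300, a MATα derivative of BY4742 with the alleles his3Δ1, leu2Δ0, lys2Δ0 and ura3Δ0, of which lys2Δ0 and ura3Δ0 were repaired. Both also share the edits of EPY300 that raise isoprenoid supply, namely 2 copies of PGAL1-tHMGR, PGAL1-upc2-1, PGAL1-ERG20 and erg9::PMET3-ERG9. Each holds a pESC-Leu2d plasmid with amorphadiene synthase (ADS), AMO and a cytochrome P450 reductase (CPR) behind galactose-inducible promoters, and the AMO of EPY338 differs by an exchange of a conserved cysteine. The cells were grown in galactose medium (YPG). Equal amounts of RNA from 5 transformants of each strain were pooled, the EPY330 pool was labeled with Alexa555 and the EPY338 pool with Alexa647, and every slide carried the same pair of pools. The slides are therefore technical replicates, and the p-values below measure only the spread between slides, not between transformants. The dyes were not swapped, so a dye effect of a gene and a difference between the strains cannot be told apart.

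Artemisinic acid is a lipophilic weak acid. Yeast meets many drugs and lipophilic acids with the pleiotropic drug resistance network, in which the zinc cluster activators Pdr1 and Pdr3 switch on ATP-binding cassette (ABC) pumps and proteins that handle membrane lipids. Other known programs are the antioxidant genes of Yap1, the unfolded protein response of Hac1, the proteasome genes of Rpn4, and the general stress response of Msn2 and Msn4, in which chaperone and trehalose genes are usually induced and ribosomal protein genes repressed.

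All values are log2(EPY330/EPY338), so that 1 is a 2-fold higher and -1 a 2-fold lower transcript level in EPY330, and they are given per slide in the order A, B, C and D or as the mean ± SD between slides (n = 4 slides unless stated). The table holds ratios without intensities, so levels cannot be compared between genes. The slides had medians between -0.02 and 0.00 and an SD over the ORFs between 0.53 (replicate A) and 0.71 (replicate C). Pearson's r between slides lay between 0.69 and 0.88 across ORFs, which are not independent replicates. The 2-sided moderated test of limma, with Benjamini-Hochberg adjustment over all 5861 ORFs and an adjusted p under 0.05, called 2744 ORFs (46.8%). Of these 1431 were higher (24.4% of all tested) and 1313 lower (22.4%) in EPY330. The one-class SAM of the study's methods, at an FDR of 0.2%, called 410 ORFs higher (7.0%) and 85 lower (1.45%), and with missing values imputed 671 higher (11.4%) and 318 lower (5.43%). Of the calls in limma, 298 were over 2-fold higher (5.08%) and 108 over 2-fold lower (1.84%), and SAM also called 377 of these 406 (6.93%). The larger changes were on the higher side, with 28 ORFs over 4-fold higher, whereas the lowest called mean was -1.84. The count of over 2-fold lower ORFs was 164 without replicate A, whose ratios have the narrowest spread.

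The ratios also followed the place and the length of the ORFs. The median per chromosome arm went from -0.32 (left arm of chromosome 1, 70 ORFs) to 0.40 (left arm of chromosome 13, 133 ORFs). On the arms of chromosomes 13 and 14 between 36.7% and 49.6% of the ORFs were called higher, compared with 18.8% and 18% on the arms of chromosome 4, where 35.5% and 33.3% were called lower. The part of this pattern in the differences between strains was not tested. With a running median along the order of ORF names removed, 1410 ORFs were called higher (24.1%) and 1281 lower (21.9%), and 269 of the 406 over 2-fold calls kept their direction, the call and the 2-fold limit (218 higher and 51 lower). By length, the 5427 ORFs with an annotated length were cut into 4 equal classes. The class of the shortest ORFs (78 to 798 bp) had a median of 0.20 with 37.2% called higher. The third class (1266 to 1911 bp) had a median of -0.16, with 14.2% called higher and 32.3% called lower. For groups of short ORFs the share of the shortest class is given below. Some groups of longer ORFs with more lower than higher members are set beside the shares of their own class. For groups whose counts of higher or lower members moved by over 1.5 times with the trend removed, those counts are given. Group counts are also read against the 24.4% and 22.4% of all ORFs and against the median of all ORFs, which was -0.01.

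**Figure D1:**
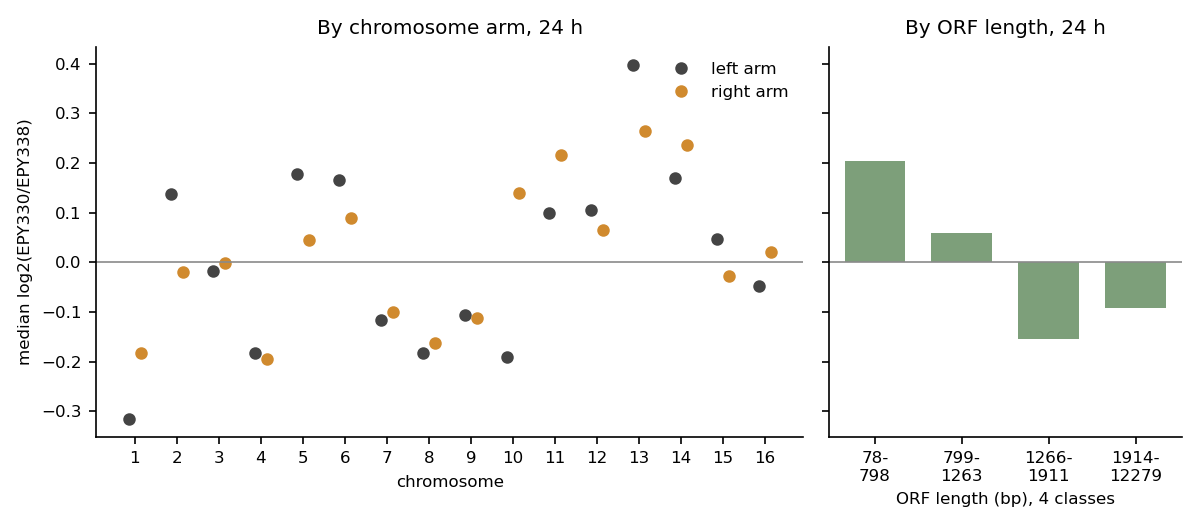
Median log2(EPY330/EPY338) at 24 h of the tested ORFs on each chromosome arm (left, points, with the number of the chromosome on the x axis and the arm by color) and in each of 4 classes of annotated ORF length (right, bars from 0). Both arms of chromosomes 13 and 14 lie above 0.15 and both arms of chromosomes 1 and 4 below -0.15, and the class of the shortest ORFs has the highest median, 0.20.

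The largest rise of all ORFs was in a sugar transporter, followed by sugar hydrolases and genes of drug resistance. HXT9 (YJL219W), a hexose transporter gene that Pdr1 and Pdr3 are known to activate, had 4.14, 5.42, 4.45 and 5.13, a mean of 4.78 (27.5-fold, limma adjusted p = 1.59e-08). IMA4 (YJL221C), an isomaltase gene whose ORF name lies next but one to HXT9, had 3.37, 3.64, 3.57 and 3.58 (11.6-fold). Both were far above 0 on every slide, with replicate B the highest and replicate A the lowest. ICT1 (YLR099C), a lysophosphatidic acid acyltransferase gene, had 3.4, 3.57, 3.17 and 3.65 (10.9-fold). GRE2 (YOL151W), the methylglyoxal and 3-methylbutanal reductase, had 2.52, 3.76, 3.34 and 3.23 (9.27-fold). The drug pump genes PDR5, PDR15, SNQ2 and YOR1, the phosphatidylinositol transfer protein gene PDR16, the isomaltases and maltases IMA1, IMA2 and MAL12, and HXT12 filled most of the next places. Among the 15 largest rises were also genes outside these families. SCC2, which loads cohesin onto chromosomes, had 2.21, 2.56, 2.76 and 2.48 (5.67-fold), and COX7, a subunit of cytochrome c oxidase, had 1.99, 2.61, 2.56 and 1.91 (4.82-fold).

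The falls were smaller and of other functions. ECM11 (YDR446W), which acts in the synaptonemal complex of meiosis, had -1.31, -2.08, -2.44 and -1.52 (3.58-fold lower, limma adjusted p = 1.71e-05). SPR3 (YGR059W), a septin of sporulation, had -1.53, -1.21, -2.31 and -1.19, and NDT80, the transcription factor of middle meiosis, had -0.66, -1.68, -1.36 and -1.6. All slides were below 0 for these genes, and replicate C lay lowest for ECM11 and SPR3 and replicate B for NDT80. GID10, a recognition subunit of the GID ubiquitin ligase, averaged -1.55 ± 0.17, DUO1, a subunit of the DASH ring that ties kinetochores to microtubules, -1.51 ± 0.19, and PCL2, a G1 cyclin of Pho85, -1.34 ± 0.18. HSP26, a small heat shock protein, had -1.49, -1.38, -1.31 and -1.21 (2.55-fold lower). These genes are from the 15 largest falls among genes with a symbol, 4 slides, the same sign on each slide and a limma call. Further ones were the bud site gene AXL2 (-1.27), the topoisomerase gene TOP3 (-1.27), the glutathione transferase gene GTO1 (-1.26) and the D-tyrosyl-tRNA deacylase gene DTD1 (-1.3). The falls of MLG1 (-1.4), RBH2 (-1.28), DIA3 (-1.29) and NEL1 (-1.24) complete the 15. With the trend along ORF names removed, DTD1 was at -0.94 and MLG1 at -1.06.

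**Figure D2:**
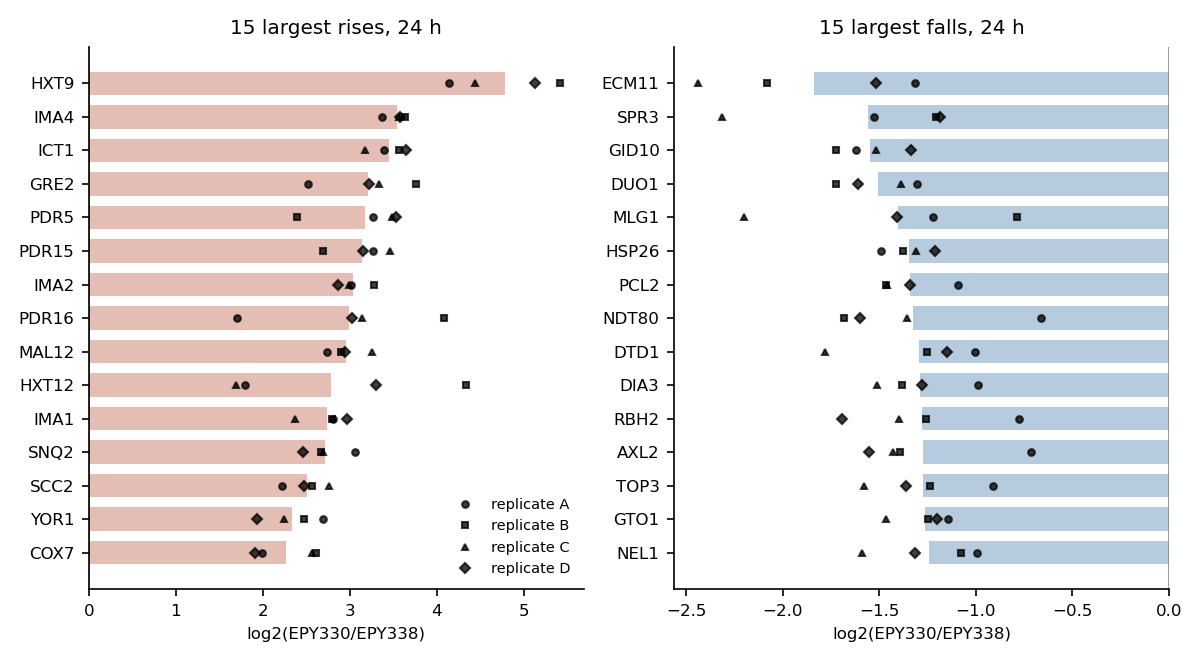
log2(EPY330/EPY338) of the 15 genes with the largest rise (left) and the 15 with the largest fall (right) among genes with a symbol, 4 slides, the same sign on each slide and a limma adjusted p under 0.05. Each point is 1 slide, marked by its replicate, and each bar is the mean of the 4 slides. The rises reach a mean of 4.78 for HXT9 and the falls -1.84 for ECM11.

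Of 20 measured ABC transporter genes 10 were higher and 2 lower (median 0.39), whereas of 22 drug antiporter genes of the major facilitator superfamily (MFS) 3 were higher and 9 lower (median -0.23). The number of MFS genes called lower was 4 without replicate A and 5 without replicate B, and it was 11 with the trend along ORF names removed. The median length of the MFS genes, 1705.5 bp, lies in the third length class, where 32.3% were called lower, beside 40.9% of the MFS genes. SAM called 5 ABC and 2 MFS genes higher and 0 of either class lower, so the lower MFS calls rest on limma. PDR5, the main drug pump of the plasma membrane, had 3.26, 2.39, 3.49 and 3.54 (9.01-fold, limma adjusted p = 2.81e-07), and its close relative PDR15 had 3.27, 2.69, 3.46 and 3.15 (8.83-fold). SNQ2, a pump for mutagens and cationic drugs, had 3.07, 2.66, 2.69 and 2.46, and YOR1, which exports oligomycin and organic anions, had 2.69, 2.47, 2.24 and 1.94. For these 4 pumps every slide was above 1.5. The other ABC members moved less: PDR10 had a mean of 0.95, the sterol importer gene PDR11 0.72 and the weak acid pump gene PDR12 0.62. At the low end were YBT1, a vacuolar bile acid transporter gene (-0.49 ± 0.26), and PXA1, a peroxisomal fatty acid transporter gene (-0.58 ± 0.32), and both were short of the call without replicate A.

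In the MFS class, the polyamine exporter genes TPO1 and TPO4 were the highest. TPO1 had 1.98, 2.36, 1.72 and 2.04 (4.07-fold) and TPO4 had 0.84, 1.88, 1.08 and 1.31 (2.43-fold). The vacuolar and plasma membrane antiporter genes at the other end were AZR1 (-0.76), which confers resistance to azoles and acetic acid, VBA3 (-0.73), a vacuolar basic amino acid transporter gene, and QDR1 (-0.67), a quinidine resistance gene. Of 13 measured Pdr1 and Pdr3 targets outside the ABC and MFS classes, with PDR3 itself among them, 10 were higher, 5 of them over 2-fold. Their median was 0.80. In limma 0 were lower, also at an unadjusted p under 0.05, and SAM called 6 higher and 0 lower. PDR16 had 1.7, 4.08, 3.14 and 3.03 (7.94-fold), while its relative PDR17 was at 0.79 ± 0.21. CIS1 (YLR346C) averaged 2.06 ± 0.36 and RTA1, a lipid-translocating exporter family member, 0.89 ± 0.24. LAC1, a ceramide synthase gene, and IPT1, which makes the final mannosyl inositol phosphoceramide, were at 0.07 ± 0.55 and 0.10 ± 0.41 and passed no call. With the trend along ORF names removed IPT1 was called higher at 0.62 (limma adjusted p = 0.0035), and 11 of the 13 targets were higher. The activator genes themselves were near 0, PDR1 at -0.09 ± 0.36 and PDR3 at -0.20 ± 0.22, and passed no call either.

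Among 29 genes of drug and stress transcription factors 11 were higher and 4 lower, and the direction differed within families. HAC1, whose product drives the unfolded protein response, had 0.84, 1.49, 1.72 and 1.48 (2.6-fold), and the stress repressor gene XBP1 had 1.1, 1.32, 1.08 and 1.21. MSN2 averaged 0.85 ± 0.23, whereas its paralog MSN4 was at -0.17 ± 0.48 without a call. YAP1, the activator of antioxidant genes, averaged 0.64 ± 0.30 and its relative YAP3 -0.54 ± 0.43, the second of these short of the call without replicate A or C. With the trend along ORF names removed YAP1 was at 0.22 without a call. SKN7, which acts with Yap1 at peroxide genes, had -0.58 ± 0.14, and PDR8 had -0.66 ± 0.21. REB1, a general regulatory factor, was at 0.92 ± 0.38. GCN4, the activator of amino acid synthesis genes, had 0.42 ± 0.65 without a call.

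Reductase and antioxidant genes had more higher than lower members. Of 25 genes of aldo-keto, aryl alcohol and enone reductases 12 were higher and 2 lower (48% and 8.0%). With the trend along ORF names removed these counts were 14 and 1. Of 18 genes of glutathione and methylglyoxal metabolism 6 were higher and 3 lower (5 and 5 with the trend along ORF names removed). Of 30 peroxide and superoxide scavengers 15 were higher and 5 lower. ADH6, an NADPH-dependent cinnamyl alcohol dehydrogenase, had 1.16, 1.4, 1.94 and 0.70 (2.46-fold). AAD10, a putative aryl alcohol dehydrogenase gene, averaged 1.05 ± 0.44, but AAD genes are close copies whose spots may share cDNA, and AAD3 was at -0.22 ± 0.25 and ADH7 at -0.36 ± 0.39 without a call. BDH1, the butanediol dehydrogenase gene, had -0.46 ± 0.26, with no call without replicate A or C, and YCR102C, a quinone oxidoreductase-like gene, had -0.57 ± 0.23. Without the trend along ORF names BDH1 and YCR102C were at -0.19 and -0.30 and passed no call.

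The glutathione transferase genes went both ways. GTT2 had 1.5, 1.68, 0.96 and 1.59 (2.7-fold) and GTT3, a gene with a likely role in glutathione metabolism, averaged 1.04 ± 0.28, but the omega-class transferase gene GTO1 had -1.14, -1.25, -1.47 and -1.2. GSH2, the second enzyme of glutathione synthesis, was at 0.78 ± 0.20, and OPT1, a glutathione and oligopeptide transporter gene, and ECM38, the enzyme that degrades glutathione, were at -0.48 and -0.49, both losing the call without replicate B and OPT1 also without replicate D. Among the scavengers, PRX1, the mitochondrial peroxiredoxin, had 1.09, 1.93, 1.47 and 1.31 (2.73-fold), CCP1, the mitochondrial cytochrome c peroxidase, 1.31 ± 0.28, and CCS1, the copper chaperone of superoxide dismutase, 1.25 ± 0.60. The catalases were lower, peroxisomal CTA1 at -0.68 ± 0.24 and cytosolic CTT1 at -0.56 ± 0.26, the second of these at -0.23 and without a call once the trend along ORF names was removed. GRX3, a monothiol glutaredoxin of iron regulation, had -0.98, -0.93, -1.35 and -0.85 (2.04-fold lower), and was at -0.45, still called, with the trend removed. Scavenger genes are short (median 591 bp), and the 37.2% called higher among the class of the shortest ORFs stands beside their count.

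The widest range of any group was among the sugar genes. Of 23 hexose transporter and sensor genes 9 were higher and 7 lower, 5 and 2 of them over 2-fold (6 and 0 with the trend along ORF names removed, which put HXT15 at -0.84 and HXT5 at -0.83). HXT9, HXT11 and HXT12 are near-identical, so one transcript could give signal at all of their spots. HXT11 had 1.4, 3.98, 1.43 and 2.2 and HXT12 1.79, 4.34, 1.69 and 3.3, and in both genes replicates B and D lay above replicates A and C. The other members lay closer to 0. HXT4, a high-affinity transporter gene, averaged 1.21 ± 0.57 (n = 3) and HXT7 1.02 ± 1.32, of which HXT7 was at 0.47 without a call when replicate C was left out, and HXT5, known from slow growth, had -0.96, -0.42, -0.88 and -1.75 (2-fold lower). HXT13 and HXT15, which are also close copies, were at -0.84 ± 0.20 and -1.24 ± 0.24. STD1, a regulator of hexose transporter genes, averaged -0.86 ± 0.32.

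Of 15 genes for isomaltases, maltases and alpha-glucoside transporters 9 were higher, 8 of them over 2-fold, and 3 lower, with a median of 1.29. IMA1 had 2.81, 2.8, 2.37 and 2.97, IMA2 3.02, 3.28, 2.99 and 2.86 and MAL12 2.74, 2.9, 3.26 and 2.94. Each slide of these was above 2, although copies of this family also share sequence. The members that are not hydrolases lay lower. The MAL activator gene MAL13 was at -0.95 ± 0.49, the zinc cluster factor gene ZNF1 at -0.52 ± 0.12 and the maltose permease-like gene MPH2 at -0.93 ± 0.24, all called lower, whereas the near-copy of MPH2, MPH3, was called higher at 0.63 ± 0.21 but not with the trend along ORF names removed (0.38). SUC2, the invertase gene, which lies outside the MAL loci, had 0.65, 1.62, 1.27 and 1.62 (2.44-fold). It is counted among the 15 genes, and its mean is the median of the group. Growth on galactose uses the GAL genes, whose promoters also drive the plasmid genes. GAL1 was at 0.06 ± 0.29, GAL7 at -0.04 ± 0.32 and GAL10 at -0.31 ± 0.46, all without a call, while the repressor gene GAL80 had 1.17, 1.07, 0.87 and 0.60 and GAL11, a mediator subunit, 0.74 ± 0.33. In limma 0 of the 9 galactose genes were lower (1 at an unadjusted p under 0.05, 0 by SAM), but with the trend along ORF names removed 2 were, GAL10 among them at -0.48 (limma adjusted p = 0.0267).

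**Figure D3:**
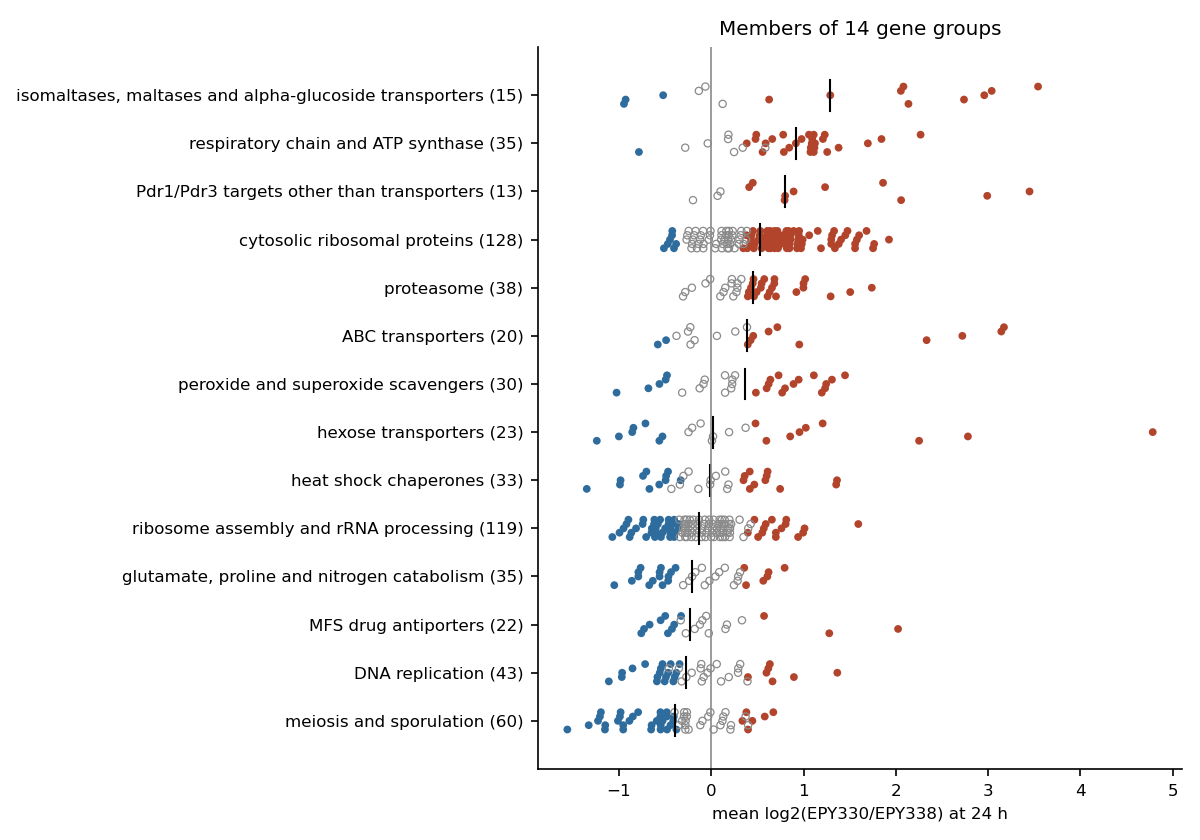
Mean log2(EPY330/EPY338) at 24 h of each measured member of 14 gene groups, with filled points for members called by limma at an adjusted p under 0.05 and open points for the others. The vertical bars are the group medians, from 1.29 for the isomaltase and maltase group to -0.39 for meiosis and sporulation.

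Most respiratory genes were higher in EPY330. Of 35 genes of the respiratory chain and ATP synthase 27 were higher (77.1%), 16 over 2-fold, and 1 was lower, with a median of 0.92. Per slide the group median was 0.73, 1.02, 0.97 and 0.85 on replicates A to D. COX7 and COX9, small subunits of cytochrome c oxidase, had 1.99, 2.61, 2.56 and 1.91 and 1.16, 2.01, 1.79 and 1.83. ATP7, a stator subunit of the ATP synthase, had 1.51, 1.96, 1.65 and 2.26 (3.59-fold). All these slides were above 1. The exception was ATP5, another stator subunit, at -0.78 ± 0.40, and QCR2, a core subunit of the bc1 complex, at -0.28 ± 0.26, passed no call. These ORFs are short (median 447 bp), and in the class of the shortest ORFs 37.2% were called higher. With the trend along ORF names removed 24 of the 35 were called higher and the median was 0.86.

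In the TCA cycle 9 of 20 genes were higher and 2 lower. Succinate dehydrogenase, which also feeds the respiratory chain, held the top and near-bottom places: SDH2, the iron-sulfur subunit, had 1.7, 2.1, 2.12 and 2.2 (4.09-fold), SDH3 averaged 1.76 ± 0.49, and SDH4, the second membrane anchor, had -0.55 ± 0.18. MDH1, the mitochondrial malate dehydrogenase, had 1.5, 2.02, 2.02 and 1.95 (3.67-fold). Among 33 genes of gluconeogenesis, the glyoxylate cycle and use of nonfermentable carbon, 9 were higher and 6 lower, and 10 were lower with the trend along ORF names removed. The acetate and ammonium transporter gene ATO2 had 1.79, 1.87, 1.45 and 1.7, ALD6, the cytosolic acetaldehyde dehydrogenase, averaged 0.98 ± 0.34 and PCK1, the first enzyme of gluconeogenesis, 0.95 ± 0.38. ACS1, the acetyl-CoA synthetase of respiring cells, was at -0.85 ± 0.45, CYB2, the lactate dehydrogenase, at -0.86 ± 0.50 and CRC1, the mitochondrial carnitine carrier, at -0.75 ± 0.44. In glycolysis and fermentation 10 of 28 were higher and 3 lower, with 5 higher without replicate D and 1 lower with the trend removed. ADH3, the mitochondrial alcohol dehydrogenase, had 1.44, 1.33, 1.77 and 1.12 (2.67-fold) and ADH4, a zinc-repressed alcohol dehydrogenase gene, -0.94, -0.78, -1.85 and -1.02. Of 39 genes of beta-oxidation and the peroxisome 7 were higher (4 without replicate B) and 8 lower, with PEX6, an AAA ATPase of peroxisome biogenesis, at 1.1 ± 0.46 and PEX7, the receptor for the second targeting signal, at -0.82 ± 0.32 (-0.33 without a call when the trend was removed).

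Genes of mitochondrial biogenesis went both ways. Of 24 protein import genes 9 were higher (37.5%, near the 37.2% of the class of the shortest ORFs, and 5 genes without replicate B) and 1 lower. With the trend along ORF names removed 8 were higher and 2 lower. The channel gene TIM23 had 0.97, 1.71, 1.66 and 1.84 (2.92-fold). Of 70 mitochondrial ribosomal protein genes 25 were higher (35.7%) and 12 lower (17.1%, 6 and 7 genes without replicates A and B), with a median of 0.21, close to the 0.20 of the class of the shortest ORFs. MRP8 averaged 1.69 ± 0.25, MRPS12 1.39 ± 0.72 and MRPL8 -0.77 ± 0.15. HAP4, the activator subunit for respiratory genes, averaged 0.92 ± 0.14, and ROX1, the repressor of hypoxic genes, 0.73 ± 0.25. Of 16 heme and oxygen regulator genes 4 were higher (2 to 4 with each slide left out) and 1 lower, and with the trend along ORF names removed 8 were higher.

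Most cytosolic ribosomal protein genes were higher. Of 128 measured genes 75 were higher (58.6%), 20 over 2-fold, and 7 lower (5.47%, 3 genes without replicate A, B or D), with a median of 0.53. RPL15B had 1.54, 1.82, 2.35 and 1.99 (3.8-fold), RPL41A 1.73, 1.78, 2.12 and 1.43 and RPL11A 1.66, 1.63, 1.84 and 1.88. Every slide of these was above 1, but most ribosomal protein genes are pairs of near-identical copies whose signals cannot be kept apart by spotted ORFs. RPS21B was at -0.51 ± 0.14, the lowest of the group, and at -0.27 without a call when the trend along ORF names was removed. With the trend removed 76 were higher and 4 lower. The median length of the group was 801 bp, and in the class of the shortest ORFs (up to 798 bp) 37.2% were called higher. Per slide the group median was 0.30, 0.62, 0.41 and 0.62 on replicates A to D. Translation factors had 18 of 41 genes higher and 5 lower, with the initiation factor genes TIF34 (1.38 ± 0.18), TIF11 (1.36 ± 0.20) and SUI1 (1.23 ± 0.12) at the top and GCD14, a tRNA methyltransferase subunit, at -0.69 ± 0.15.

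Genes that make ribosomes had more lower than higher members in limma. Of 119 genes for ribosome assembly and rRNA processing 16 were higher (13.4%) and 34 lower (28.6%), with a median of -0.13, and without replicate A 22 were lower. These shares were near those of ORFs of like length. The median length of the group is 1506 bp, and in the third length class 14.2% were called higher and 32.3% lower. SAM called 3 higher and 1 lower, and with imputed values 8 in each direction. UTP20, of the small subunit processome, was the highest at 1.59 ± 0.28, and RIX1, of large subunit maturation, the lowest at -1.07 ± 0.13. RRP1 had -0.95 ± 0.11 and FAL1 -0.99 ± 0.26. RNA polymerase I and III genes had 3 of 32 higher and 6 lower (18.8%, under the share of all ORFs), with 7 higher and 6 lower once the trend along ORF names was removed. Among 19 aminoacyl-tRNA synthetase genes 3 were higher and 5 lower, with the lowest at -0.96 ± 0.61 for TYS1 (tyrosine) and -0.77 ± 0.22 for MES1 (methionine).

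Most transcripts of proteasome genes were higher in EPY330, and those of chaperones went both ways. Of 38 proteasome genes 23 were higher (60.5%), with a median of 0.45, and in limma 0 were lower (2 at an unadjusted p under 0.05, 0 by SAM). PRE5, an alpha subunit of the core particle, had 1.33, 1.87, 2.37 and 1.39 (3.34-fold), PRE2, the subunit with chymotrypsin-like activity, 1.54, 1.52, 1.5 and 1.47, and PUP3, another beta subunit, 0.68, 1.46, 1.64 and 1.4. RPN4, whose product activates these genes, averaged 0.41 ± 0.27, a call that was lost without replicate A, C or D. Of 33 heat shock chaperone genes 11 were higher and 11 lower, and the higher ones numbered 7 without replicate A or B and 6 without replicate D. The highest were mitochondrial folding genes, CPR3 at 1.36 ± 0.12, HSP10 at 1.35 ± 0.37 and MDJ1 at 0.75 ± 0.65. The lowest were HSP26, HSP42, the other general small heat shock protein (-0.98 ± 0.41), and CDC37, the kinase co-chaperone of Hsp90 (-0.99 ± 0.18). HSP12, a membrane-protecting stress protein, averaged 0.36 ± 0.14, a call that was lost without any 1 of the slides.

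The endoplasmic reticulum group had 9 of 29 genes higher and 4 lower (2 lower with the trend along ORF names removed). CUE1, which recruits the ubiquitin-conjugating enzyme Ubc7 for degradation of misfolded proteins, had 1.45, 1.83, 2.01 and 2.24 (3.69-fold), and UBC7 itself averaged 1.28 ± 0.24. The chaperone gene KAR2, a standard target of Hac1, was at 0.19 ± 0.32 without a call, and YOS9, a lectin of the same degradation pathway, at -0.57 ± 0.27. In the vacuolar and autophagy group 6 of 24 were higher (3 with the trend along ORF names removed) and 7 lower. PAI3, the inhibitor of proteinase A, had 0.92, 1.47, 2.11 and 1.5 (2.83-fold), ATG3, the lipidation enzyme of Atg8, averaged 0.70 ± 0.23, and ATG18 and ATG19, for membrane recruitment and the cytoplasm-to-vacuole route, averaged -0.76 ± 0.30 and -0.62 ± 0.29. With the trend along ORF names removed YOS9 (-0.19) and ATG3 (0.28) passed no call.

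The secretory pathway and the membranes around it were mixed. Among 41 genes of COPII, COPI and exocytosis 13 were higher and 6 lower, with SSO2, a plasma membrane t-SNARE, at 1.31 ± 0.25 and BET1, a v-SNARE, at -0.94 ± 0.10 (n = 3). Of 35 N-glycosylation and O-mannosylation genes 10 were higher and 5 lower, from OST4, a subunit of oligosaccharyl transferase, at 0.90 ± 0.32 to MNS1, a mannosidase, at -0.88 ± 0.49. Of 25 vacuolar and plasma membrane ATPase genes 11 were higher (7 without replicate D) and 1 lower. PMP1, a regulator of the plasma membrane proton pump, had 1.45, 1.72, 1.82 and 1.79 (3.23-fold), while the pump gene PMA1 itself was at 0.23 ± 0.25 without a call. VMA6 and VMA16, subunits of the membrane sector of the vacuolar pump, averaged 1.19 ± 0.25 and 1.14 ± 0.33. VMA21, its assembly factor, had -1.24, -1.92 and -1.0 on replicates A, C and D, 2.61-fold lower.

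Isoprenoid and sterol genes, which both strains were built to alter, went both ways. Of 14 mevalonate pathway genes 4 were higher and 3 lower, shares near those of all ORFs. MVD1, the last enzyme before isopentenyl diphosphate, had 1.02, 1.42, 1.13 and 1.37 (2.35-fold), ERG10, the first, averaged 0.91 ± 0.35, and NUS1, a subunit of the dolichol-forming prenyltransferase, -0.77 ± 0.18. HMG1, part of which both strains carry as PGAL1-tHMGR, averaged -0.47 ± 0.19, and this call was lost without replicate B or D. With the trend along ORF names removed HMG1 was at -0.89 and called lower. The other engineered genes passed no call, ERG20 at 0.13 ± 0.28, UPC2 at -0.32 ± 0.10 (n = 3) and ERG9 at -0.34 ± 0.37. LEU2, the selection marker of both plasmids, was at 0.00 ± 0.19 and the repaired URA3 at 0.29 ± 0.29, both without a call, and the repaired LYS2 had 1.08, 0.49, 1.22 and 0.67 (1.82-fold, limma adjusted p = 7.15e-04). With the trend removed LYS2 was at 1.05. Of 28 ergosterol genes 10 were higher, 4 over 2-fold, and 4 lower, and with the trend removed 11 were higher, 2 over 2-fold, and 2 lower. ERG2, the sterol isomerase, had 1.48, 1.72, 1.6 and 2.15 (3.33-fold), CYB5, the cytochrome b5 that donates electrons to sterol and lipid enzymes, 0.99, 1.63, 1.36 and 1.73, and ERG5, the C-22 desaturase, 1.19 ± 0.10. ERG11, the yeast P450 of the pathway, was at 0.21 ± 0.22 without a call. ERG7, lanosterol synthase, averaged -0.71 ± 0.13 and ECM22, a sterol regulatory factor, -0.76 ± 0.26.

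Other lipid genes also went both ways. Of 34 genes for fatty acids and phospholipids 12 were higher and 7 lower. OLE1, the fatty acid desaturase, had 1.23, 1.73, 2.11 and 1.49 (3.12-fold), CHO1, phosphatidylserine synthase, 1.42, 1.35, 1.5 and 1.68, and ITR1, the main inositol transporter, 1.31, 1.68, 1.48 and 1.21. INO2, an activator of phospholipid genes, had -1.07, -0.94, -1.39 and -0.80 (2.07-fold lower). EKI1 and EPT1 of the ethanolamine branch were at -0.77 ± 0.18 and -0.75 ± 0.19. With the trend removed INO2 was at -0.47, still called, and EKI1 at -0.31 without a call. Of 31 sphingolipid genes 6 were higher and 10 lower. ORM2, a brake on serine palmitoyltransferase, averaged 1.1 ± 0.36, and the lowest were LCB3 (-0.91 ± 0.16), DPL1 (-0.83 ± 0.37) and ISC1 (-0.81 ± 0.07), which act in the breakdown or recycling of sphingoid bases and sphingolipids. Without replicate D 5 sphingolipid genes were lower.

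Cell surface genes went both ways. Of 26 mannoprotein genes 9 were higher and 4 lower, and of 34 genes for glucan, chitin and mannan synthesis 10 were higher and 7 lower. YGP1, a secreted stress glycoprotein, had 1.52, 1.88, 1.99 and 2.28 (3.78-fold), TIR2, a cold and hypoxia mannoprotein, averaged 1.24 ± 0.24 and CCW12 0.94 ± 0.24. KRE1, of beta-glucan assembly, had 1.17 ± 0.24, and UTR2, a chitin-glucan crosslinking enzyme, -0.83 ± 0.43. The seripauperin (PAU) genes, short near-copies of one another at the chromosome ends, had 9 of 23 higher (39.1%, near the 37.2% of the class of the shortest ORFs) and 2 lower (1 to 5 with each slide left out), from PAU3 at -0.98 ± 0.46 to PAU4 at 1.19 ± 0.72.

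Metal, phosphate and osmotic genes went both ways. In the iron regulon 4 of 30 genes were higher and 5 lower (13.3% and 16.7%, both under the shares of all ORFs). The iron-sulfur scaffold gene ISU1 had 1.19, 1.8, 1.5 and 1.88 (3.02-fold), and CTH1, an mRNA-decay factor of iron shortage, was at -0.70 ± 0.17. Of 17 copper and zinc genes 6 were higher and 3 lower. The metallothionein genes CUP1-1 and CUP1-2, which are identical copies, averaged 0.89 ± 0.21 and 0.76 ± 0.19, and the zinc-responsive genes ZRT1 (importer) and IZH1 averaged -0.98 ± 0.10 and -0.98 ± 0.41, as did ADH4 at -1.15. Of 23 phosphate genes 4 were higher and 7 lower (4 without replicate C or D), and the secreted acid phosphatase PHO5 was at -0.18 ± 0.33 without a call. In the glycerol and osmotic group 8 of 22 were higher (5 without replicate B or D) and 4 lower. DAK1, dihydroxyacetone kinase, and GPP1, glycerol-3-phosphatase, averaged 1.01 ± 0.16 and 0.97 ± 0.36, but GPD1, the first enzyme of glycerol synthesis, averaged -0.62 ± 0.24 (n = 3), STL1, the glycerol importer, -0.65 ± 0.27 and PBS2, the kinase above Hog1, -0.98 ± 0.21. The call of GPD1 was lost when the trend along ORF names was removed (-0.39).

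Of 20 trehalose and glycogen genes 2 were higher and 6 lower (30%, against 22.4% of all ORFs and 25.7% of the class of the longest ORFs). SAM called 0 of them. The lowest values were at PGM1 (-0.88 ± 0.24), GDB1, the glycogen debranching enzyme (-0.85 ± 0.22), and GPH1, glycogen phosphorylase (-0.75 ± 0.27). The trehalose synthase gene TPS1 was at -0.32 ± 0.23 without a call. Of 21 stationary phase and hydrophilin genes, which are short (median 645 bp), 10 were higher (47.6%, beside the 37.2% of the class of the shortest ORFs) and 3 lower. SNZ1 and SNZ2, for vitamin B6 synthesis, had 1.81, 1.52, 1.12 and 1.47 and 0.92, 1.92, 1.96 and 1.23, though SNZ2 has a near-identical copy, SNZ3, which was at 0.08 ± 0.17.

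Nitrogen catabolism and methionine genes had more lower than higher members in limma. Their median lengths, 1500 and 1560 bp, lie in the third length class, where 14.2% were called higher and 32.3% lower. Of 35 genes for glutamate, proline and nitrogen catabolism 6 were higher (17.1%) and 15 lower (42.9%), with a median of -0.21. SAM called 0 of them higher and 1 lower, and with imputed values 0 and 3. The urea transporter gene DUR3 had -0.98, -1.04, -1.08 and -1.11 (2.07-fold lower), the allantoin permease gene DAL4 averaged -0.86 ± 0.26, and GDH2 and PUT1, which degrade glutamate and proline, -0.79 ± 0.19 and -0.79 ± 0.59. Of 34 sulfate assimilation and methionine genes 6 were higher and 12 lower (17.6% and 35.3%, near the shares of the third length class), with a median of -0.07. SAM called 2 of them in each direction, and with imputed values 3 in each. MUP1, the high-affinity methionine permease, had -1.01, -1.19, -1.62 and -1.07 (2.33-fold lower), SAM3, the S-adenosylmethionine permease, had -0.73, -1.67, -1.49 and -0.91, and CYS3, cystathionine gamma-lyase, averaged -0.88 ± 0.17. HOM6, the homoserine dehydrogenase, went the other way with 1.17 ± 0.36. The medium holds methionine for repression of PMET3, and MET3, the native gene of that promoter, was at -0.03 ± 0.21 without a call.

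Among the smaller amino acid groups, of 15 genes for aromatic amino acids 5 were lower, among them ARO10, the decarboxylase of aromatic amino acid breakdown (-0.99 ± 0.19), and TRP4 (-0.96 ± 0.32). In limma 0 of these 15 were higher, also at an unadjusted p under 0.05, and SAM called 0 in either direction. With the trend along ORF names removed 1 was higher and 5 lower, and the median was 0.09 in place of -0.10. In the glycine, serine and threonine group 3 of 16 were higher (5 with the trend along ORF names removed) and 4 lower, with CHA1, the serine deaminase, at -0.90, -1.46 and -0.98 on replicates A to C (2.16-fold lower) and GCV1 and GCV2 of the glycine cleavage system at -0.87 ± 0.52 and -0.81 ± 0.15. ARG3 of arginine synthesis averaged -0.75 ± 0.22, CPA1 0.85 ± 0.30, and the branched-chain enzyme ILV5 0.79 ± 0.34. Of 20 permease genes 3 were higher and 4 lower (1 to 4 with each slide left out), with LYP1, the lysine permease, at 1.14 ± 0.30.

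Nucleotide synthesis genes had more higher than lower members. Of 36 genes for purine and pyrimidine synthesis 15 were higher (41.7%), 8 over 2-fold, and 5 lower. FCY1, cytosine deaminase, had 1.42, 1.18, 1.86 and 1.3 (2.71-fold), URA1, dihydroorotate dehydrogenase, 0.92, 1.62 and 1.67 on replicates A, B and D, and PRS5, a phosphoribosyl pyrophosphate synthetase, 1.39 ± 0.26. IMD2, the inosine monophosphate dehydrogenase induced by guanine shortage, averaged -0.92 ± 0.29 and URA7, a CTP synthase gene, -0.70 ± 0.22. With the trend along ORF names removed the median of the group was 0.11 in place of 0.30, with 14 higher, 5 of them over 2-fold, and 5 lower. Of 28 thiamine, pyridoxine and NAD genes 3 were higher and 8 lower. Among 10 histone genes, which are short (median 399 bp), 5 were higher (50%, beside the 37.2% of the class of the shortest ORFs) and 2 lower. With the trend along ORF names removed 5 were higher and 1 lower. HHT1, HTA2 and HHF1 had 1.15, 1.72, 1.99 and 1.3, 1.28, 1.66, 1.22 and 1.81 and 1.14, 1.43, 1.92 and 1.48, and HTB1 averaged -0.57 ± 0.30, although the histone pairs are also near-identical copies.

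The groups for sporulation, mating and the cell cycle had more lower than higher members. The median lengths of the meiosis, mating, cyclin and DNA replication groups lie in the third length class. In that class 32.3% were called lower and 14.2% higher, beside 50%, 41.7%, 39.3% and 41.9% lower in these groups. Of 60 meiosis and sporulation genes 30 were lower, 8 over 2-fold, and 6 higher (2 and 3 genes without replicates A and D), with a median of -0.39. The count of lower genes was 23 to 32 with each slide left out and 28 with the trend removed, and SAM called 8 lower and 0 higher. Next to SPR3 and NDT80, SPO7, of a phosphatase complex at the nuclear membrane, had -1.08, -1.14, -1.3 and -1.38. Highest were MEI5 at 0.67 ± 0.24 and SMK1 at 0.58 ± 0.35, the second of these short of the call without replicate A or when the trend was removed (0.21). The strains are haploid α cells, in which many genes specific to meiosis and sporulation are normally silent. The ratios carry no levels to show which members of the group were expressed. Of 36 mating and pheromone response genes 15 were lower and 6 higher. PRM10 averaged -1.22 ± 0.46, STE7, a kinase of the pheromone pathway, -0.87 ± 0.10, and STE5, its scaffold, -0.84 ± 0.30 (-0.25 without a call when the trend was removed), whereas PRM7 had 1.22, 1.91, 1.29 and 1.6 (2.84-fold). MF(ALPHA)1, the α-factor gene, was at -0.53 ± 0.17 and STE3, the a-factor receptor of α cells, at -0.01 ± 0.10.

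Of 28 genes for cyclins and inhibitors of cyclin-dependent kinases 11 were lower, 3 over 2-fold, and 4 higher. The S phase cyclin gene CLB6 had -0.88, -1.29, -0.80 and -1.4 (2.13-fold lower), CLB4 averaged -1.02 ± 0.22, and PHO80, the cyclin of the phosphate pathway, 1.08 ± 0.37. Of 43 DNA replication genes 18 were lower (41.9%) and 7 higher, and with the trend along ORF names removed 14 were lower and 3 higher. ORC6, of the origin recognition complex, had -0.47, -1.61, -1.06 and -1.29 (2.16-fold lower), and RAD27, the flap endonuclease, -0.97 ± 0.25. RFA3, a subunit of replication protein A, was higher at 1.37 ± 0.19. Of 30 kinetochore and spindle genes 10 were lower (6 without replicate B) and 4 higher, with MIF2, the centromere-binding protein gene, at -0.97 ± 0.34 and NNF1, of the MIND complex, at 0.97 ± 0.27. For DNA replication, kinetochore, cyclin and mating genes SAM called at most 3 lower in any 1 group.

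**Figure D4:**
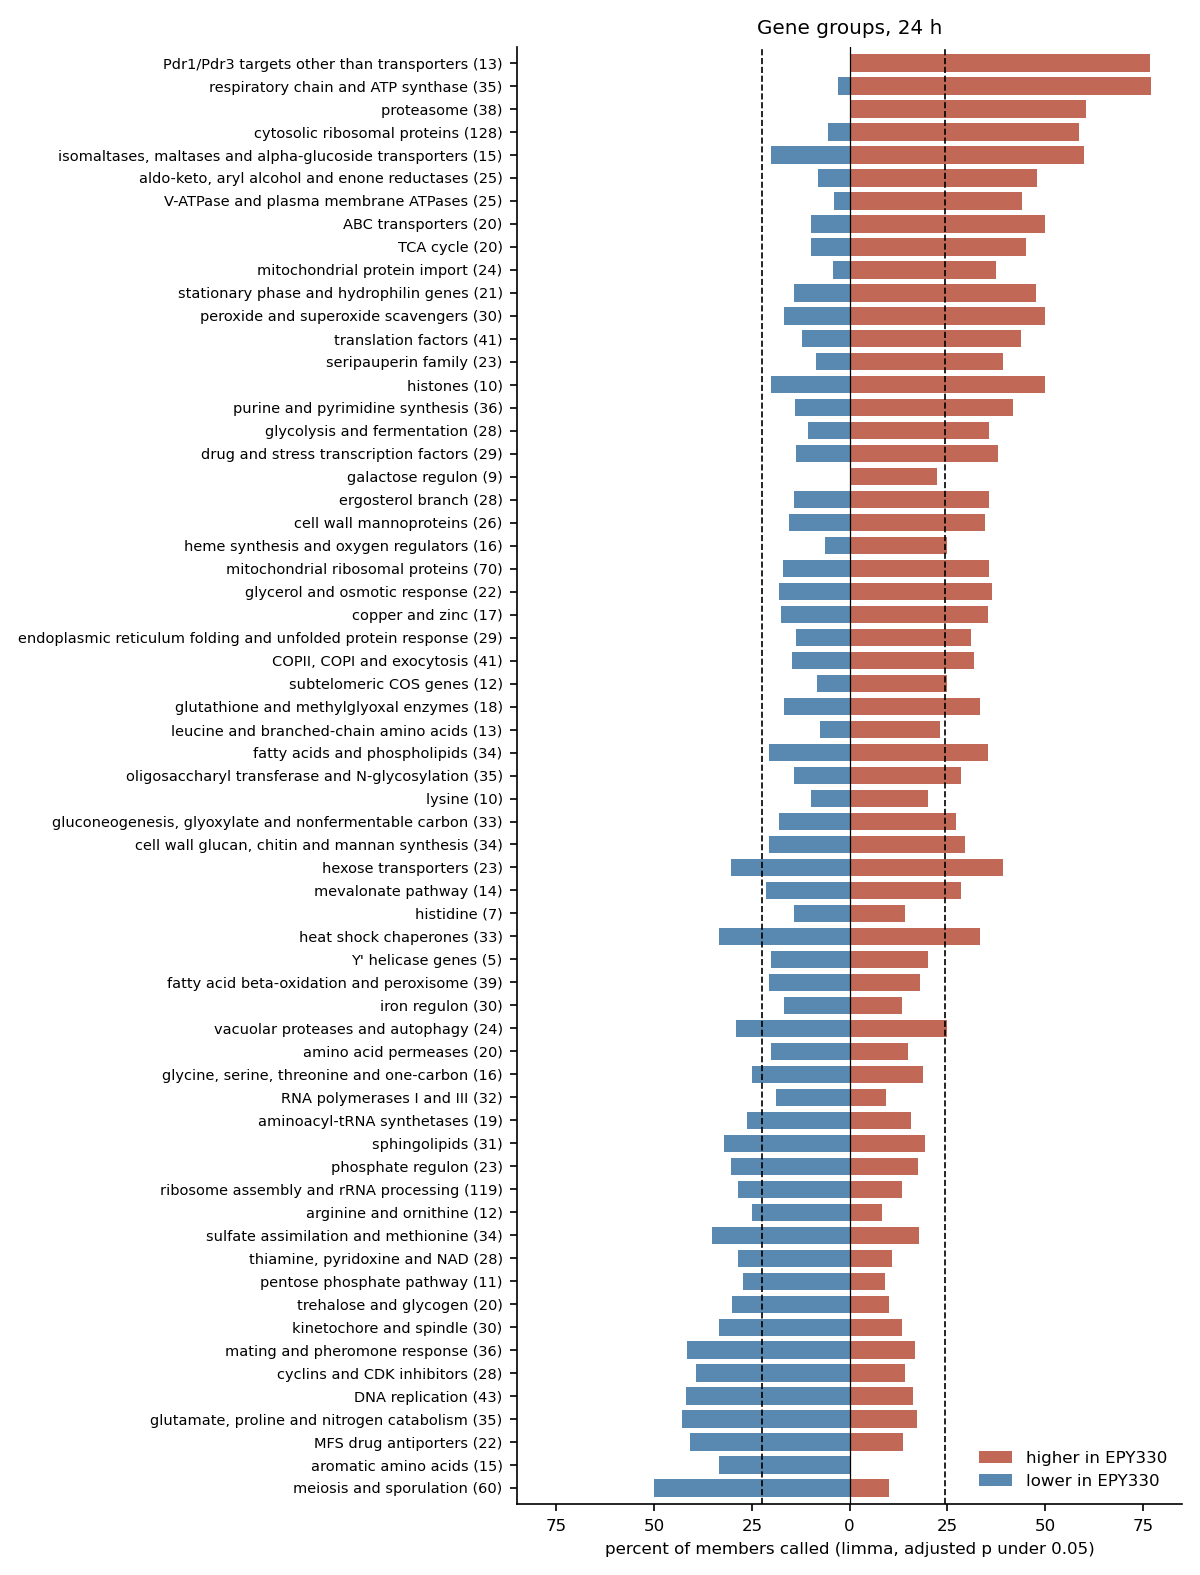
Share of the measured members of each gene group called higher (bars to the right) and lower (bars to the left) in EPY330 at 24 h by limma at an adjusted p under 0.05, with the number of members in parentheses. The broken lines mark the shares over all 5861 ORFs, 24.4% higher and 22.4% lower. In the respiratory chain group 77.1% are higher and among the Pdr1 and Pdr3 targets 76.9%, and in the meiosis group 30 of 60 are lower.

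ORFs without a gene name had shares near those of all ORFs. Of 434 tested ORF names without a match in the annotation 89 were higher (20.5%) and 107 lower (24.7%), and of 474 matched ORFs without a symbol 118 were higher and 97 lower. The subtelomeric COS genes, close copies of unknown role, had 3 of 12 higher and 1 lower (2 and 2 with the trend along ORF names removed). They went from COS12 at -1.0 ± 0.24 (n = 3) to COS2 at 1.18 ± 0.21. The Y' helicase genes, which are copies at the chromosome ends, had 1 of 5 higher and 1 lower (0 and 2 with the trend removed).

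The 24 h ratio was set against the later ratios of the same strains to see which genes differed from the later times, with limma on all 14 slides (5 each at 48 and 72 h) and the contrast of 24 h minus the mean of 48 and 72 h over 5652 ORFs. This contrast called 56 ORFs (0.991%), 34 with a 24 h ratio above the later ones (0.602%) and 22 below (0.389%). Sugar genes led the higher side. At 24, 48 and 72 h HXT9 had means of 4.78, 2.19 and 0.50, a difference of 3.44 (limma adjusted p = 4.75e-07). MAL12 had 2.96, 0.67 and -0.10, and IMA2 3.04, 1.25 and 0.29. Of the isomaltase and maltase group 7 genes were called, all above the later ratios, and of the hexose transporters HXT9, HXT11 and HXT12 above and HXT5 below. The drug pump PDR5 had 3.17, 2.5 and 2.03 and passed no call in this contrast (adjusted p = 0.14). ICT1, TPO4, HAC1, CHO1 and ITR1 were above the later ratios, by 1.61, 0.91, 1.01, 0.94 and 0.98.

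Of the 22 ORFs on the lower side 14 had a mean below 0 at 24 h. SPG4, a stationary phase gene, had means of 0.85, 3.29 and 2.13 at the 3 times. MTD1, of one-carbon metabolism, had 0.22, 2.31 and 1.56, and SIP18, a hydrophilin, 0.69, 2.68 and 1.8. ADY2, the acetate transporter gene, had -0.37, 1.21 and 1.23, and ADH2, the alcohol dehydrogenase that oxidizes ethanol, -0.21, 0.85 and 1.18. The count of 56 rested on single slides, with 31 calls without replicate B at 24 h and 33 without replicate D at 24 h. Against 72 h alone 810 ORFs were called, and against 48 h alone 56. The group medians at 24, 48 and 72 h were 0.92, 1.12 and 0.16 for the respiratory chain. In the same order of times the cytosolic ribosomal proteins had 0.53, 0.57 and -0.20, the proteasome 0.45, 0.48 and -0.09, and the meiosis genes -0.39, -0.53 and 0.04.

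**Figure D5:**
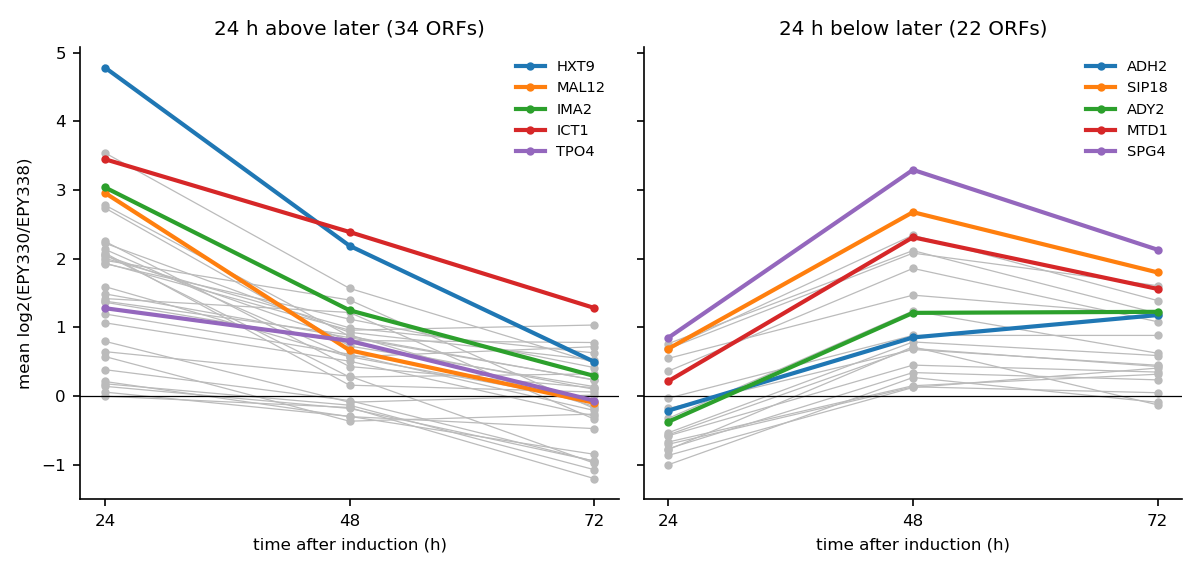
Mean log2(EPY330/EPY338) at 24, 48 and 72 h of the genes with a 24 h ratio above (left, 34 ORFs) or below (right, 22 ORFs) the mean of the later ratios in limma (adjusted p under 0.05). Each line is 1 ORF, and the named lines are those given in the text. HXT9 has 4.78, 2.19 and 0.50 at the 3 times, and SPG4 0.85, 3.29 and 2.13.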

How the data were processed

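Labeled cDNA of EPY330 and EPY338 was hybridized together on 14 slides, of which the 4 at 24 h were used for the main comparison. The authors deposited 1 log2 ratio of EPY338 over EPY330 per ORF and slide, after exclusion of aberrant and weak spots and lowess normalization, and the direction was taken from the slide titles and dyes. The sign was turned. No count, intensity or depth is used here. The number of slides limits only the precision of the ratio between the same pair of pools. More slides of these pools would not measure the spread between transformants.

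ORFs with at least 3 slides were tested against 0 in limma 3.58.1 under R 4.3.3 (intercept only, two-sided, Benjamini-Hochberg), since SAM gives coarse values with gaps. The contrast with 48 and 72 h used all 14 slides. The procedure was tested on simulated data. Tables and plots were made with pandas 2.3.3 and matplotlib 3.10.9 under Python 3.11.15 with numpy 2.4.6. Alternatives were SAM with and without imputation from the 10 nearest ORFs, an adjusted p of at most 0.002, ORFs on every slide, centring, scaling, slide weights, a running median over 24 ORFs on either side removed, all 14 slides, other fold limits, the slide median, the replicate letter as a block, and leaving out each slide.

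The annotation matched 5546 ORF names and gave symbols and lengths. Coordinates, sequences and upstream motifs were not used here. The 64 gene lists and the members were chosen with earlier results of these data known. The genes named are the 15 largest rises and 15 largest falls, the 3 highest and 3 lowest members of each list (every member of lists of at most 12), the engineered genes and the factors PDR1, PDR3, PDR5, MSN2, MSN4, YAP1, HAC1 and GCN4, from which the text takes 233. A further 26 were chosen after their values were seen: AAD3, ADH2, ADY2, CUP1-2, ERG11, HSP12, HXT4, HXT7, HXT13, KAR2, MF(ALPHA)1, MPH3, MTD1, PDR10, PDR11, PDR12, PDR17, PHO5, PMA1, PUT1, RPN4, RTA1, SNZ3, STE3, SUC2 and TPS1.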

Additional observations from a re-analysis of the deposited data

Results flagged for a closer look

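The 24 h ratio of these named genes differed from the mean of the 48 and 72 h ratios in limma (adjusted p under 0.05, 56 of 5652 ORFs in all). Differences above the later ratios were 3.44 for HXT9, 2.67 for MAL12, 2.51 for IMA4, 2.31 for IMA1, 2.27 for IMA2, 2.23 for HXT12 and 1.98 for HXT11, all of them sugar transporters or hydrolases. ICT1 had 1.61, HAC1 1.01, ITR1 0.98, UTP20 0.95, CHO1 0.94, RFA3 0.93 and TPO4 0.91. LEU2, the plasmid marker, had 0.68, with means of 0.00, -0.17 and -1.2 at 24, 48 and 72 h. Differences below the later ratios were -1.86 for SPG4, -1.72 for MTD1, -1.59 for ADY2, -1.55 for SIP18, -1.23 for ADH2, -1.13 for CYB2, -1.11 for HSP12, -1.09 for HXT5, -0.98 for PXA1 and -0.90 for CUP1-2.

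For other named genes 1 slide at 24 h lay far from the other slides (Dixon's test on 4 slides). Chance gives about 1 such gene in 20, so several of the 259 named genes would be flagged by chance alone. The genes listed do not exceed that share. Replicate C stood apart for HSP42 (-1.6), IZH1 (-1.59), RAD27 (-1.35), SDH4 (-0.81) and TIF34 (1.1). Replicate A stood apart for LCB3 (-0.67), MDH1 (1.5), PDR10 (1.43) and RIX1 (-0.87), and replicate D for CUP1-1 (0.57).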

How the results depend on the processing

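The direction and the call of 152 of the 259 named genes at 24 h held under every alternative, and no called gene changed sign. Of the 231 named genes with a call, 11 lost it without at least 1 slide, 14 with the trend along ORF names removed, 31 with the limit on the adjusted p at 0.002, 98 under SAM and 51 under SAM with imputed values. With the trend along ORF names removed, 3 genes without a call gained one, IPT1, ADH2 and GAL10.

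The counts of 24 h calls moved with the test. Against 2744 calls (1431 higher and 1313 lower) there were 495 (410 and 85) under SAM, 989 (671 and 318) under SAM with imputed values and 1133 (655 and 478) with that limit at 0.002. With each slide left out they were 2266 to 2723 in all, 1201 to 1413 higher and 1041 to 1310 lower. At a fold limit of 1.5 in place of 2, 24 h calls over 2-fold became 1609 (932 higher and 677 lower) in place of 406 (298 and 108), and with each slide left out they were 387 to 512, with 289 to 348 higher and 98 to 164 lower.

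For 24 h minus later, the 56 calls (34 above and 22 below) became 18 (12 and 6) with that limit, 99 (64 and 35) with slides scaled to 1 spread, 810 (518 above and 292 below) against 72 h alone, and 21 above and 35 below against 48 h alone. For GPP1, which passed no call in this contrast, the difference was 0.79 against 72 h alone and -0.06 against both later times. With the replicate letter as a replicate block 91 were called, 65 above and 26 below. The main fit takes the letters only as names of slides. Of the 14 slides 5 correlated best with a slide of their own letter, and r within a letter went from -0.53 to 0.64. With so few slides per letter, these values cannot tell whether the letters pair the slides. Leaving out single slides gave 31 to 84 calls, 18 to 58 above and 13 to 40 below. The lowest came without replicate B at 24 h (31, with 18 above and 13 below) and replicate D at 24 h (33, with 18 above), whereas 22 were above without replicate B at 72 h, 58 were above without replicate E at 72 h and 40 were below without replicate B at 48 h. The cause was not tested for these moves. The files used here hold no intensities, so signal over background was not assessed.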
